A study of Mus musculus with 24 samples.

Results

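Mitochondrial fusion and fission were followed through 8 genes: the fusion GTPases Mfn1, Mfn2 and Opa1, the inner membrane proteases Oma1 and Yme1l1, and the fission genes Dnm1l, Fis1 and Mff. They were chosen by symbol from the 35275 genes of the deposited expression table, and all 8 symbols had a row. The RNA came from whole gonadal and inguinal white fat pads of conditional adipose FoxO1 knockout mice and of control mice with floxed FoxO1. Insulin signalling holds FoxO1, a transcription factor, out of the nucleus, and the series set out to find what it regulates. The 4 groups were gonadal knockout, gonadal control, inguinal knockout and inguinal control. Each group held 6 libraries, and the column names of the table give them to 3 knockout mice (M5, M9 and M12) and 3 control mice (M6, M7 and M10), with 2 libraries per pad. The pads of a mouse were averaged over their libraries, so n is 3 mice in every group. The Cre driver, the floxed exons, and the age and diet of the mice were not stated in the labels used here.

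Mitochondria join and divide continuously. Mfn1 and Mfn2 sit in the outer membrane and fuse it, and Opa1 fuses the inner membrane and shapes the cristae. Oma1 and Yme1l1 cut the Opa1 protein, Yme1l1 constitutively and Oma1 mainly under stress, so these genes act on one substrate. Dnm1l encodes the cytosolic GTPase Drp1, which constricts the organelle. Mff is an outer membrane receptor for Drp1, and Fis1 is an outer membrane adaptor known best from yeast fission. Mfn2 is also known for holding mitochondria to the endoplasmic reticulum. In fat cells this machinery is studied for its link to lipid storage and heat production.

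The members lie in mm10 as the deposited table gives them. Mfn1 is at chr3:32529465-32579239 on the plus strand and Mfn2 at chr4:147873599-147904704 on the minus strand. Opa1 is at chr16:29579334-29654884 on the plus strand. Oma1 is at chr4:103313812-103371868 and Yme1l1 at chr2:23156369-23199260, both on the plus strand. Dnm1l is at chr16:16312235-16359030 on the minus strand, Fis1 at chr5:136953275-136966234 and Mff at chr1:82724890-82752394, the last pair on the plus strand. All 8 are listed as protein coding. Some share ground with other GENCODE genes: Dnm1l with the antisense gene Gm49521, Mfn2 with the processed pseudogene Gm13156, and Mff with C430014B12Rik and Gm28941. The last 3 reached at most 0.411 FPKM (fragments assigned to a gene, scaled by its length and by the library's total over genes) in any pad. Gm49521 had no row in the deposited expression table. The strand setting of the counting was not stated, so reads of Dnm1l and of its antisense gene cannot be told apart.

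The start regions of Opa1, Mfn2, Oma1, Fis1 and Mfn1 are shown because Opa1, Mfn2, Oma1 and, in knockout mice, Fis1 passed the depot test on the FPKM scale, while Mfn1, the near relative of Mfn2, did not. RefSeq sequence of build GRCm38.p6 was matched for 8 of 8 members, in 13 windows of 300 bases that run from 250 bases before a transcript start to 50 bases after it. Each window below is the one nearest the listed gene start, on the gene's own strand, at chr16:29579084-29579383 for Opa1, chr4:147904649-147904948 for Mfn2, chr4:103313596-103313895 for Oma1, chr5:136953025-136953324 for Fis1 and chr3:32529232-32529531 for Mfn1. Capitals mark a match to the core letters of the site of NRF1, an activator of respiratory genes.
Opa1: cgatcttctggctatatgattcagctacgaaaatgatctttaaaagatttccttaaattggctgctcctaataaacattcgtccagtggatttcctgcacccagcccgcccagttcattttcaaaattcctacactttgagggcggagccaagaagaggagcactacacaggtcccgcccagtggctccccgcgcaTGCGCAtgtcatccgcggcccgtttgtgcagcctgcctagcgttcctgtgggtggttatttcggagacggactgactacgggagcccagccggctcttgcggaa
Mfn2: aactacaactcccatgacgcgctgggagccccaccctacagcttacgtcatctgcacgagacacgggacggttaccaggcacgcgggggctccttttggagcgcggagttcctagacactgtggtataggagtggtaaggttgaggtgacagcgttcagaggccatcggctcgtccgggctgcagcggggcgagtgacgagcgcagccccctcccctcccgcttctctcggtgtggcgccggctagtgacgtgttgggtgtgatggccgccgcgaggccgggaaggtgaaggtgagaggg
Oma1: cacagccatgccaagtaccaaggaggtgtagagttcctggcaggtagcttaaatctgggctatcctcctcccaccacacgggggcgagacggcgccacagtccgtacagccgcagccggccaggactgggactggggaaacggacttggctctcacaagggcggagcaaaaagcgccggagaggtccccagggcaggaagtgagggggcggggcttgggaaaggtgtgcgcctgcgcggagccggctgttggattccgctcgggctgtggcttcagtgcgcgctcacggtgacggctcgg
Fis1: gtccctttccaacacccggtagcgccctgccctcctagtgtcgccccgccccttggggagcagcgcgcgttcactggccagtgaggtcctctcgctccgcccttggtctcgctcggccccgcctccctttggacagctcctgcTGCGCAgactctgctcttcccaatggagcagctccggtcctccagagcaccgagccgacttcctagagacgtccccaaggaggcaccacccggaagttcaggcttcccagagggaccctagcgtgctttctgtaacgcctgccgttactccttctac
Mfn1: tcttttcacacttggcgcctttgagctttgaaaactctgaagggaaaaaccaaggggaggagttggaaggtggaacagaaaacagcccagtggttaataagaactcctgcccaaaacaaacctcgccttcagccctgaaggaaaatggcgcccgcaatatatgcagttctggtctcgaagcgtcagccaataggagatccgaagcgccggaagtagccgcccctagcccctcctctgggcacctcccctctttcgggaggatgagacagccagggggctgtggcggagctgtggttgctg
Motifs were searched on both strands as exact letters: GTAAACA for FoxO factors, TGCGCA for the NRF1 core and AAGGTCA for the ERR nuclear receptors. No match overlapped another. The NRF1 letters occurred in 2 of the 13 windows, those of Opa1 and Fis1 printed above, and began 54 and 107 bases before the start. They occurred in 7.76% of 32851 RefSeq promoter windows of the same length. The FoxO and ERR letters occurred in 0 of the 13 windows and in 3.65% and 4.72% of all windows. A match is a string of letters and not a measured binding site, and its absence from these windows says nothing about binding by a factor.

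The genotype of a column was read from a letter in its name, so Foxo1 was checked first. In gonadal fat Foxo1 had 4.07, 4.46 and 4.01 FPKM in knockout mice M5, M9 and M12, against 13.6, 7.87 and 9.53 FPKM in control mice M6, M7 and M10. In inguinal fat Foxo1 had 4.12, 2.49 and 5.69 FPKM in the knockout mice, against 19.7, 13.0 and 14.5 FPKM in the controls. All knockout pads were below all control pads in both depots, and none was at 0. Total reads assigned to genes ran between 14953657 and 25438811 per library. The 2 libraries of a pad correlated at 0.995 to 0.997 across genes (12 pairs), and libraries of different mice in a group at 0.958 to 0.992 (48 pairs).

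Other tissue was present in several pads, and cell makeup differed between the depots. Summed levels of the marker lists are given in FPKM. The 12 male tract genes summed to 5716 in the gonadal pad of knockout mouse M12, and to 2522 and 445 in those of controls M10 and M6, against at most 1.88 in the other gonadal pads. The 9 skeletal muscle genes summed to 8.01 to 346 in inguinal knockout pads and 96.9 to 777 in inguinal control pads. The 8 lymphocyte genes summed to 5.06 and 4.81 in the inguinal pads of knockout mouse M9 and control mouse M7, against 214 to 334 in the other inguinal pads. The 8 adipocyte markers were all present, at 9211 to 13630 in gonadal knockout, 6906 to 7535 in gonadal control, 19670 to 23889 in inguinal knockout and 15756 to 27154 in inguinal control pads. The 5 macrophage genes found of 6 summed to 5548 to 9948 in gonadal knockout, 6477 to 11877 in gonadal control, 165 to 363 in inguinal knockout and 355 to 806 in inguinal control pads. The 6 brown adipocyte genes summed to 43.9 to 94.0 in gonadal knockout and 19.6 to 35.9 in gonadal control pads, without overlap, and to 1007 to 1369 in inguinal knockout and 308 to 1168 in inguinal control pads. The 5 erythroid genes were all lower in knockout pads of both depots, with 4 in gonadal and 5 in inguinal fat at an unadjusted p under 0.05 and 0 called. They summed to 1475 to 3788 in gonadal knockout, 3786 to 12020.0 in gonadal control, 2115 to 2350.4 in inguinal knockout and 2800.0 to 9321 in inguinal control pads, so the inguinal genotypes did not overlap. In whole pads, fewer cells of a type and less RNA per cell cannot be told apart.

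All 8 members were expressed in every pad. Fis1 was the highest on the length-scaled FPKM scale, at 120.2 ± 11.8 in gonadal knockout, 112.6 ± 7.4 in gonadal control, 86.2 ± 4.7 in inguinal knockout and 97.5 ± 18.2 in inguinal control pads (SD, n = 3 mice). Mfn2 came next in all 4 groups and Yme1l1 after it. The ranges of Mfn2 and Yme1l1 overlapped only in gonadal control pads. Below them the order depended on the depot. In gonadal fat it ran Dnm1l, Mff, Opa1, Oma1 and Mfn1 in both genotypes. The ranges of Dnm1l and Mff, and of Oma1 and Mfn1, overlapped there in both genotypes, and those of Opa1 and Oma1 in the controls. In inguinal fat it ran Opa1, Dnm1l, Mff, Mfn1 and Oma1. The ranges of Opa1 and Dnm1l and of Dnm1l and Mff overlapped there in the controls. By its mean, Opa1 stood above Dnm1l in inguinal pads and below Mff in gonadal pads.

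**Figure D1:**
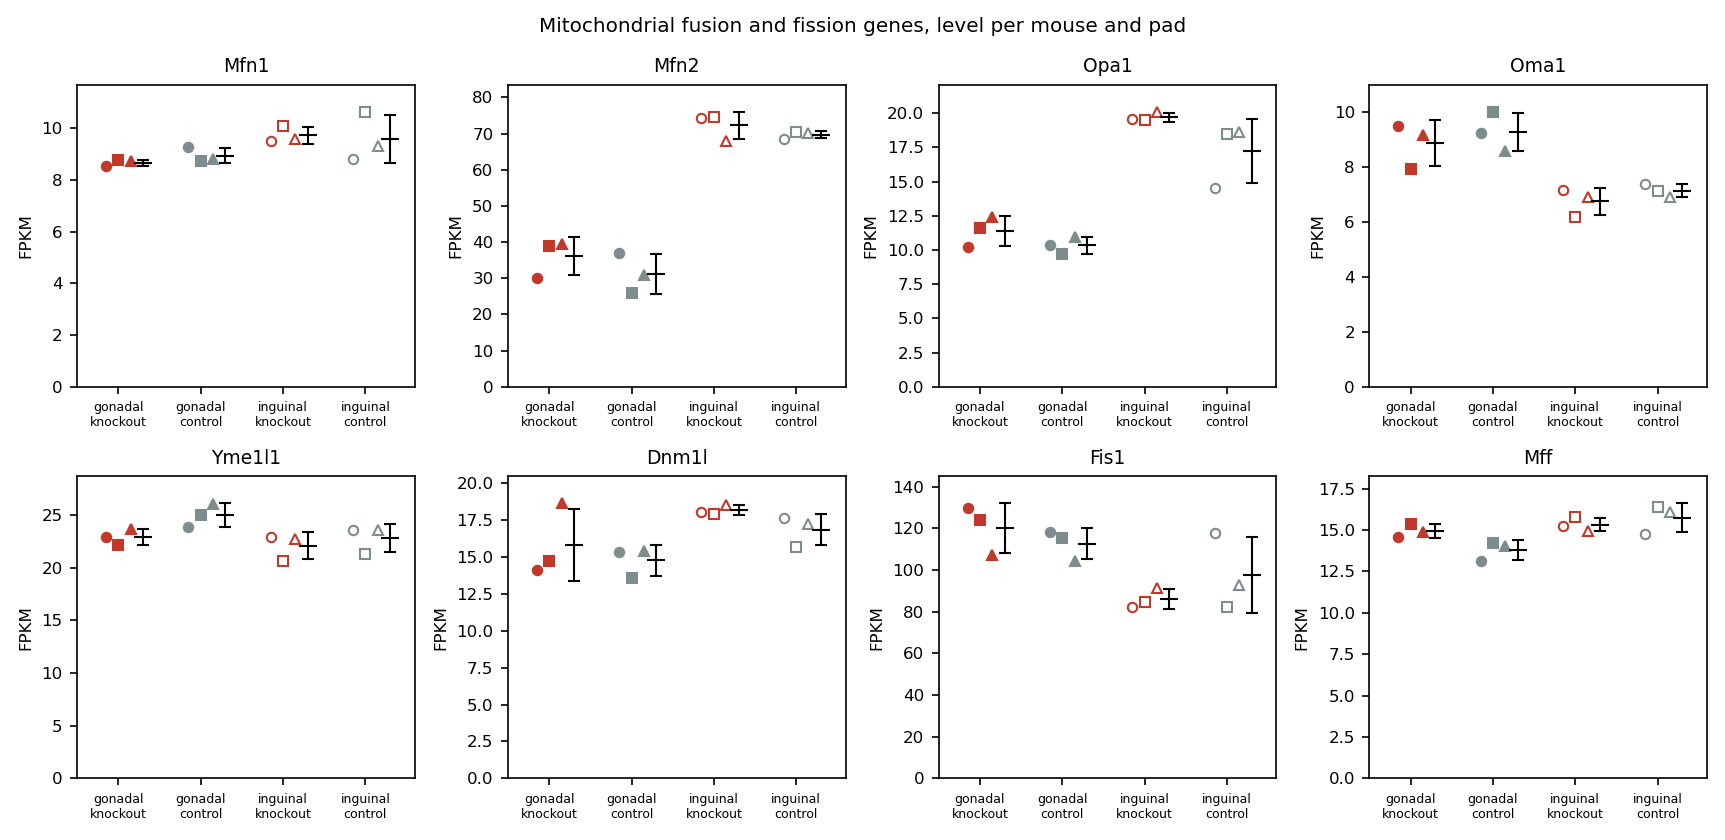
Expression of the 8 genes in FPKM (vertical axis, from 0) in gonadal knockout, gonadal control, inguinal knockout and inguinal control pads. Each point is 1 mouse (circle M5 or M6, square M9 or M7, triangle M12 or M10), filled for gonadal and open for inguinal, and bars are the mean ± SD of 3 mice. Mfn2 and Opa1 are the 2 panels in which gonadal pads lie far below inguinal pads, with the inguinal pad of control M6 the nearest to the gonadal pads for Opa1.

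The read depth behind these levels was ample for the higher members and thinner for Oma1. Oma1 had 180 to 454 reads per library and Mfn2 2178 to 6593, and the other 6 lay between 635 and 2916. Libraries of one pad differed with an SD of 0.05 (Yme1l1) to 0.11 (Oma1) on the log2 scale. Mice of one group differed with an SD of 0.06 (Mff) to 0.17 (Mfn2). For Oma1 both SDs were 0.11, and for Mff the SD between libraries, 0.08, exceeded that between mice.

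The largest differences among the members lay between the depots. Mfn2 and Opa1 were lower in gonadal than in inguinal fat in both genotypes, and both passed the test. Mfn1 did not pass it on the FPKM scale. Of the proteases, Oma1 ran the other way on the FPKM scale and Yme1l1 did not pass. The comparison was tested within each genotype with limma on log2(FPKM + 0.5), with Benjamini-Hochberg adjustment over all genes tested and an adjusted p under 0.05 as the threshold.

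Mfn2 had 30.0, 38.9 and 39.4 FPKM in gonadal pads of the knockout mice, against 74.3, 74.5 and 68.0 FPKM in their inguinal pads. In the control mice Mfn2 had 36.9, 26.0 and 30.8 FPKM in gonadal pads, against 68.5, 70.5 and 70.1 FPKM in inguinal pads. No gonadal pad came near an inguinal one. The log2 fold change of Mfn2, gonadal over inguinal, was -1.0 (SE 0.12, limma adjusted p = 0.00161) in knockout mice and -1.16 (SE 0.14, limma adjusted p = 0.00174) in control mice. Mfn2 was called in each of the 11 alternative settings in both genotypes.

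Opa1 had 10.2, 11.6 and 12.4 FPKM in gonadal pads of the knockout mice, against 19.5, 19.5 and 20.1 FPKM in their inguinal pads. In the control mice Opa1 had 10.3, 9.73 and 10.97 FPKM in gonadal pads, against 14.6, 18.5 and 18.7 FPKM in inguinal pads. The inguinal pad of control M6 was the lowest of the inguinal pads, and still above every gonadal pad. Opa1 had a log2 fold change of -0.77 (SE 0.09, limma adjusted p = 0.00126) in knockout mice and -0.70 (SE 0.12, limma adjusted p = 0.00618) in control mice. Without mouse M10 the control value was -0.69 and the call was lost (limma adjusted p = 0.0907).

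Mfn1, which shares the outer membrane task of Mfn2, had 8.54, 8.76 and 8.71 FPKM in gonadal pads of the knockout mice, against 9.49, 10.1 and 9.58 FPKM in their inguinal pads. In the control mice Mfn1 had 9.28, 8.73 and 8.80 FPKM in gonadal pads, against 8.80, 10.6 and 9.29 FPKM in inguinal pads. The knockout pads of the 2 depots did not overlap and the control pads did. Mfn1 had a log2 fold change of -0.16 (SE 0.07, limma adjusted p = 0.0976) in knockout mice and -0.09 (SE 0.10, limma adjusted p = 0.506) in control mice. After TMM rescaling it was -0.42 in knockout mice, which passed (limma adjusted p = 0.0143), and -0.26 in control mice, which did not (limma adjusted p = 0.202).

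Oma1, the stress-activated protease, had 9.51, 7.95 and 9.18 FPKM in gonadal pads of the knockout mice, against 7.15, 6.20 and 6.92 FPKM in their inguinal pads. In the control mice Oma1 had 9.24, 10.02 and 8.61 FPKM in gonadal pads, against 7.39, 7.15 and 6.92 FPKM in inguinal pads. Every gonadal pad was above every inguinal pad. Oma1 had a log2 fold change of 0.37 (SE 0.10, limma adjusted p = 0.0265) in knockout mice and 0.35 (SE 0.10, limma adjusted p = 0.0288) in control mice. Both calls were lost after TMM rescaling, at 0.11 (limma adjusted p = 0.403) and 0.19 (limma adjusted p = 0.256), with edgeR and DESeq2 on rebuilt reads, and without any 1 mouse. With the mouse as a replicate block, which pairs the pads of an animal, the control call was lost (limma adjusted p = 0.0541) and the knockout call stood (limma adjusted p = 0.0236). Yme1l1, the constitutive protease, averaged 23.0 ± 0.7 FPKM in gonadal and 22.1 ± 1.3 FPKM in inguinal pads of the knockout mice, and 25.0 ± 1.1 and 22.8 ± 1.3 FPKM in those of the controls (SD, n = 3). Its log2 fold changes of 0.05 and 0.13 did not pass, and both turned negative after TMM rescaling, at -0.22 and -0.04. DESeq2 on rebuilt reads gave -0.23 in knockout mice and called it (DESeq2 adjusted p = 0.000357), the 1 of 11 alternative settings that did.

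Of the fission genes, Fis1 had 129.7, 123.8 and 107 FPKM in gonadal pads of the knockout mice, against 82.4, 84.7 and 91.4 FPKM in their inguinal pads. These did not overlap, and the log2 fold change of Fis1 was 0.47 (SE 0.10, limma adjusted p = 0.00977). In the control mice Fis1 had 118, 115.5 and 104 FPKM in gonadal pads, against 117.6, 82.2 and 92.9 FPKM in inguinal pads. With control M6 the inguinal range reached into the gonadal one, and the log2 fold change there was 0.22 (SE 0.15, limma adjusted p = 0.279). The knockout call was lost after TMM rescaling (0.20, limma adjusted p = 0.249), with edgeR and DESeq2, without mouse M5 (limma adjusted p = 0.0932) and without mouse M9 (limma adjusted p = 0.0902). Dnm1l averaged 15.8 ± 2.4 FPKM in gonadal and 18.2 ± 0.3 FPKM in inguinal pads of the knockout mice, and 14.8 ± 1.1 and 16.9 ± 1.0 FPKM in those of the controls (SD, n = 3). The log2 fold changes of Dnm1l, -0.20 and -0.18, did not pass. After TMM rescaling they were -0.47 (limma adjusted p = 0.0124) and -0.35 (limma adjusted p = 0.0150), and both passed. Mff averaged 14.9 ± 0.4 FPKM in gonadal and 15.3 ± 0.4 FPKM in inguinal pads of the knockout mice, and 13.8 ± 0.6 and 15.7 ± 0.9 FPKM in those of the controls (SD, n = 3). Its log2 fold changes were -0.04 and -0.18, and -0.31 and -0.35 after TMM rescaling, of which the knockout value passed (limma adjusted p = 0.0437) and the control value did not (limma adjusted p = 0.0686). The control value of Mff passed with DESeq2 (DESeq2 adjusted p = 0.0403) and with 6 libraries as replicates (limma adjusted p = 0.0149).

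In knockout mice 4 of 8 members were called between the depots, against 47.8% of the 14593 genes tested (35.1% higher and 12.7% lower in gonadal fat). In control mice 3 of 8 were called, against 41.4% of 14505 genes (26.9% higher and 14.5% lower). The members' counts were therefore near the background. Pads of the depots did not overlap upward for 46.9% of all genes and downward for 16.6% in knockout mice, and for 38.7% and 20.2% in control mice. Among the members, Fis1 and Oma1 lay above and Mfn1, Mfn2 and Opa1 below without overlap in knockout mice. In control mice Yme1l1 and Oma1 lay above and Dnm1l, Mff, Mfn2 and Opa1 below. The members' median log2 fold change was -0.10 in knockout and -0.14 in control mice, beside medians of 0.27 and 0.18 over all genes. TMM rescaling moved the all-gene medians to 0.03 in both genotypes and the members' medians to -0.36 and -0.30. Then 5 members in knockout and 3 in control mice were called, all lower in gonadal fat. Of all genes 20.3% were then called higher and 20.7% lower in knockout mice, and 21.3% and 19.6% in control mice. Adipocyte, brown adipocyte and macrophage marker levels differed between the same pads, as given above, and their part in these differences was not tested.

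**Figure D2:**
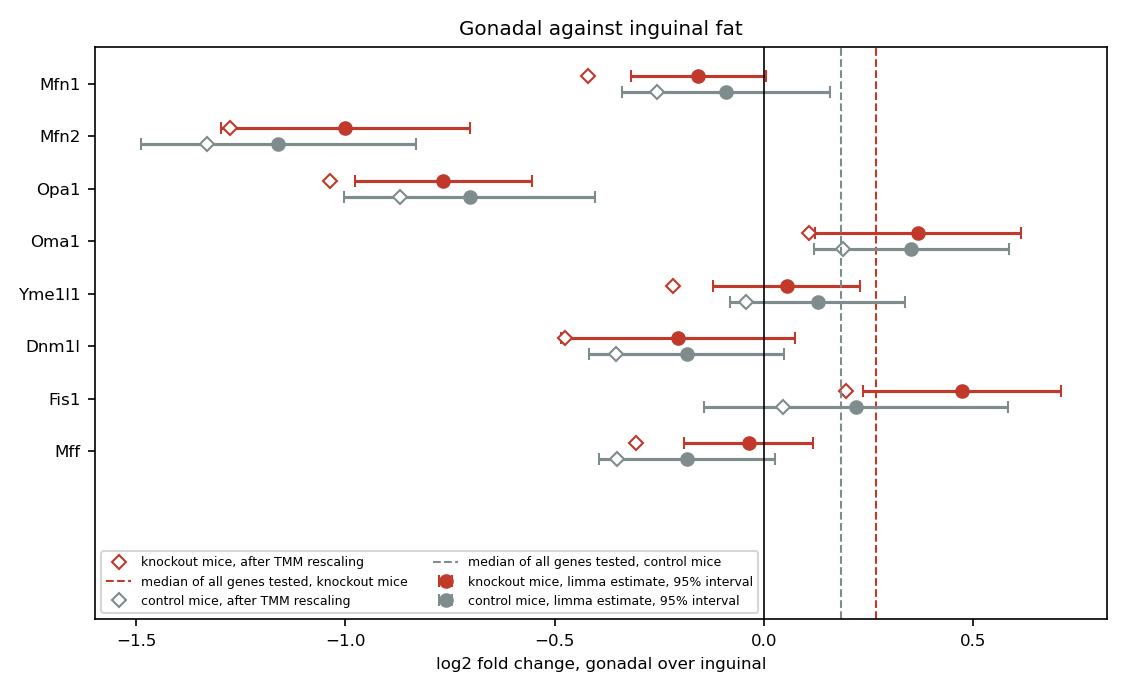
Log2 fold change of each gene, gonadal over inguinal fat (horizontal axis), in knockout mice (red) and control mice (grey), with 95% intervals of the limma fit. Open diamonds are the estimates after TMM rescaling, and dashed lines are the medians of all genes tested, 0.27 in knockout and 0.18 in control mice. Mfn2 lies at -1.0 in knockout and -1.16 in control mice and Opa1 at -0.77 and -0.70, with intervals below 0, while rescaling pulls Oma1 and Fis1 towards 0 and pushes Mfn1, Dnm1l and Mff further below it.

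Ratios within a pad do not depend on the scaling of the library. They are given as a description, with no test. Mfn2 stood at 3.52, 4.45 and 4.52 times Mfn1 in gonadal knockout pads and 3.97, 2.97 and 3.51 times in gonadal control pads. In inguinal fat it stood at 7.83, 7.38 and 7.09 times Mfn1 in knockout pads and 7.79, 6.64 and 7.54 times in control pads. The share of Mfn2 among the mitofusin transcripts was thus lower in every gonadal pad than in any inguinal pad. Opa1 stood at 1.08, 1.46 and 1.35 times Oma1 in gonadal knockout pads and 1.12, 0.971 and 1.27 times in gonadal control pads. In inguinal fat the ratio was 2.73, 3.15 and 2.90 in knockout pads and 1.97, 2.59 and 2.70 in control pads. These inguinal genotypes did not overlap, by a narrow margin, while the gonadal ones did. How often ratios of other genes separate the genotypes was not computed. Opa1 over Yme1l1 was 0.446 to 0.523 in gonadal knockout and 0.389 to 0.433 in gonadal control pads, again without overlap, and 0.852 to 0.947 and 0.618 to 0.871 in the inguinal pads, where the genotypes overlapped. Fis1 over Mff was 7.19 to 8.91 in gonadal knockout and 7.42 to 9.02 in gonadal control pads, and 5.37 to 6.11 and 5.02 to 7.97 in the inguinal pads. Dnm1l over Mff stayed between 0.953 and 1.25 in all 12 pads.

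**Figure D3:**
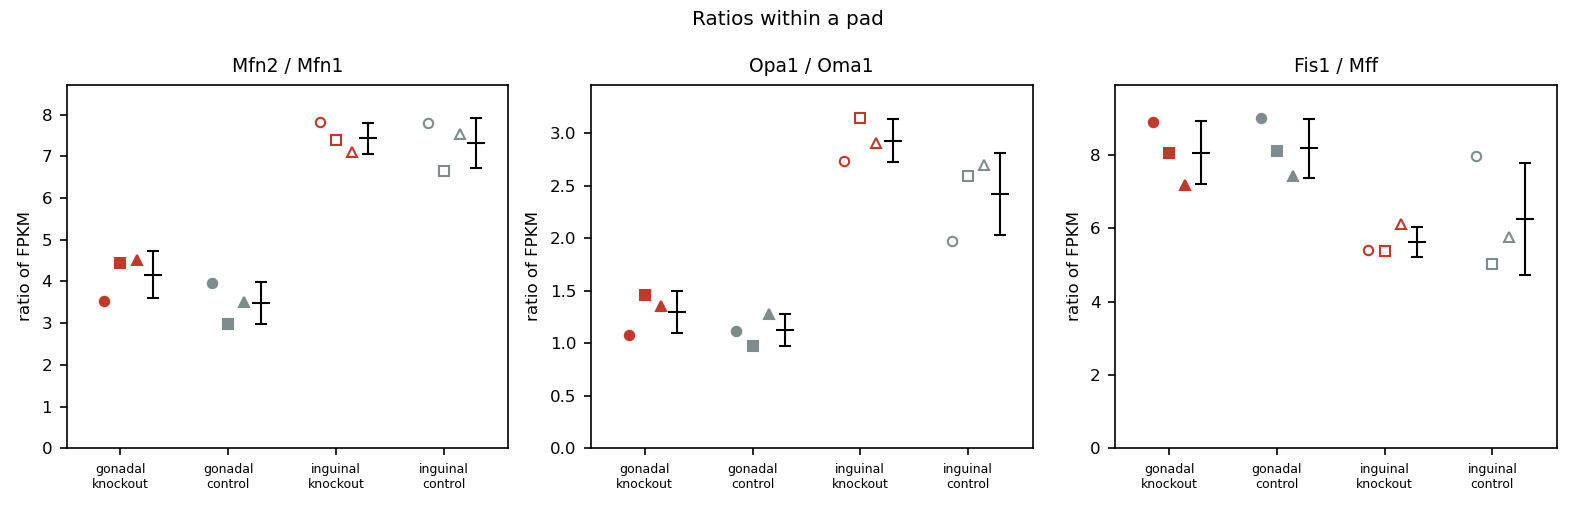
Ratio of FPKM of 2 genes within a pad (vertical axis, from 0) for Mfn2 over Mfn1, Opa1 over Oma1 and Fis1 over Mff, in gonadal knockout, gonadal control, inguinal knockout and inguinal control pads. Points are mice with the same symbols as in the plot of levels, and bars are the mean ± SD of 3 mice. Mfn2 over Mfn1 lies between 2.97 and 4.52 in gonadal pads and between 6.64 and 7.83 in inguinal pads.

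In gonadal fat these genes differed little between knockout and control mice, and none passed the test. Of the 8 members 5 were higher and 3 lower in knockout pads, and 0 were called, against 0% of the 14851 genes tested. Unadjusted p-values fell below 0.05 for 0 members and 8.69% of all genes. Of all genes 44.2% were higher in knockout pads. DESeq2 on rebuilt reads called 313 genes, and 0 members.

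The fusion gene Mfn2 had the largest gonadal estimate. From the levels above, knockout M5 lay among the controls and control M6 among the knockouts. The log2 fold change of Mfn2, knockout over control, was 0.21 (SE 0.17, 95% interval -0.20 to 0.62, limma adjusted p = 0.793). It was 0.34 without knockout M5, 0.09 without control M7, and 0.39 when the 3 pads with male tract transcripts were left out, which leaves 1 control mouse. With the mean of the adipocyte list as a covariate its sign changed, to -0.15 (limma adjusted p = 0.883). All 8 adipocyte markers had higher means in the same knockout pads, with summed levels that did not overlap the controls. The covariate was the mean log2 level of the list, and there the genotypes overlapped. Knockout M5 stood at 8.53, below control M6 at 8.62. For Opa1 the log2 fold change was 0.13 (SE 0.10, 95% interval -0.10 to 0.37, limma adjusted p = 0.766), and Mfn1 stood at -0.04 (SE 0.07).

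Mff and Yme1l1 were the members whose gonadal genotypes did not overlap. Mff, the Drp1 receptor, had 14.6, 15.4 and 14.9 FPKM in gonadal knockout pads, against 13.1, 14.2 and 14.1 FPKM in gonadal control pads. All knockout pads were above all controls by a narrow margin. This gave Mff a log2 fold change of 0.11 (SE 0.07, 95% interval -0.06 to 0.28, limma adjusted p = 0.719). Yme1l1 had 22.9, 22.2 and 23.7 FPKM in gonadal knockout pads, against 23.8, 25.0 and 26.1 FPKM in gonadal control pads. Here all knockout pads were below all controls, with knockout M12 and control M6 nearly level. The log2 fold change of Yme1l1 was -0.12 (SE 0.07, 95% interval -0.29 to 0.05, limma adjusted p = 0.702). Genotypes did not overlap for 14.3% of all genes (6.79% higher and 7.54% lower), so 1 member each way is close to the background.

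The remaining gonadal values were smaller. Dnm1l stood at 0.09 (SE 0.12), with knockout M12 at 18.6 FPKM, above all other gonadal pads, and its estimate was -0.03 without M12. Knockout M12 is the mouse with the highest male tract level. Fis1 stood at 0.09 (SE 0.10) and Oma1 at -0.06 (SE 0.10). The members' median was 0.09, beside -0.02 over all genes. The 95% intervals of the 8 members together ran between -0.31 and 0.62 on the log2 scale.

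In inguinal fat Mfn2 and Mfn1 of the knockout mice lay close to the control level, and Opa1 and Dnm1l stood slightly above it in every mouse. Of the 8 members 4 were higher and 4 lower, and 0 were called, against 0.022% of the 13621 genes tested, 3 genes in all and all lower. Unadjusted p-values fell below 0.05 for 0 members and 14.9% of all genes. The direction of small values depended on the scaling here. The median of all genes was -0.10, with 29.4% of genes higher, and it moved to 0.00 after TMM rescaling. After that rescaling 7 of 8 members were higher and Fis1 lower, 0 of them called, against 0.0147% of all genes called lower.

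Opa1 had the largest inguinal estimate. Its knockout pads, at 19.5 to 20.1 FPKM, all lay above its control pads, at 14.6 to 18.7 FPKM, and control M6 was the lowest. The log2 fold change of Opa1 was 0.20 (SE 0.11, 95% interval -0.07 to 0.47, limma adjusted p = 0.474). It was 0.31 after TMM rescaling and 0.08 without control M6. Dnm1l, the constricting GTPase, had 18.1, 17.9 and 18.6 FPKM in inguinal knockout pads, against 17.6, 15.7 and 17.2 FPKM in inguinal control pads. The genotypes did not overlap, and the log2 fold change of Dnm1l was 0.11 (SE 0.07, 95% interval -0.07 to 0.28, limma adjusted p = 0.553). Groups did not overlap upward for 5.28% of all genes and downward for 17.3%, 22.5% in all.

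Dnm1l was also the 1 member in the authors' deposited table of changed inguinal genes, which lists 15.2% of the genes tested here, so 1 of 8 is near the background. The gonadal table lists 0 members and 11.6% of the genes tested. The authors' deposited table for inguinal fat gives Dnm1l a log2 fold change of 0.23 with an adjusted p of 0.00155. It holds read counts of 6 libraries per group, and whether libraries or mice were the replicates was not stated. Its p is therefore not directly comparable with those per mouse. DESeq2 on rebuilt reads summed per mouse gave 0.23 as well (DESeq2 adjusted p = 0.0454), and called 661 of all genes. edgeR gave 0.20 (edgeR adjusted p = 0.240), and limma after TMM rescaling gave 0.22 (limma adjusted p = 0.331). With the mean of the skeletal muscle list as a covariate the estimate was 0.08. Skeletal muscle transcripts were lower in inguinal knockout pads for 9 of 9 genes, with overlapping summed levels. The erythroid genes were lower in the same pads for 5 of 5, without overlap, and the part of neither list in the estimates was tested beyond that covariate.

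The other inguinal members overlapped between genotypes. Fis1 stood at -0.16 (SE 0.14, 95% interval -0.51 to 0.18, limma adjusted p = 0.653), and at -0.02 without control M6, whose pad had the highest inguinal Fis1 level. Mfn2 stood at 0.05 (SE 0.07) and Mfn1 at 0.02 (SE 0.09). Oma1 stood at -0.08 (SE 0.09), Yme1l1 at -0.04 (SE 0.08) and Mff at -0.04 (SE 0.07). All 3 of these turned positive after TMM rescaling, at 0.03, 0.07 and 0.08. The 95% intervals of the 8 members ran between -0.51 and 0.47.

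**Figure D4:**
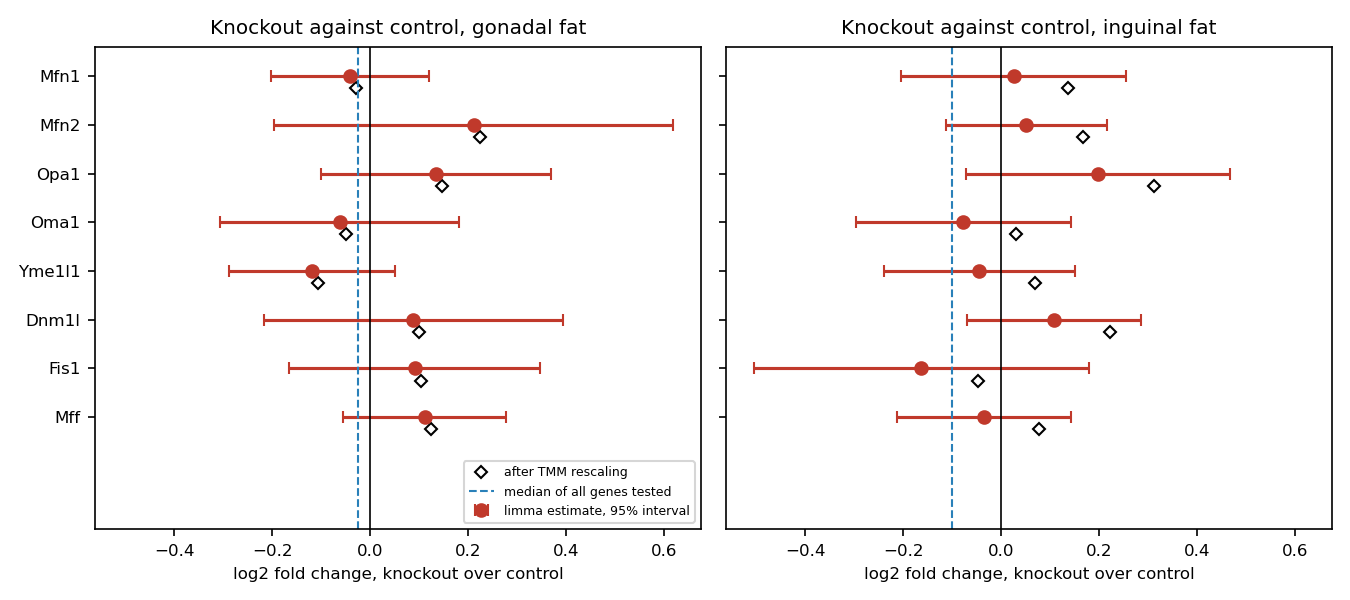
Log2 fold change of each gene, knockout over control (horizontal axis), in gonadal fat (left) and inguinal fat (right), with 95% intervals of the limma fit over 3 knockout and 3 control mice. Open diamonds are the estimates after TMM rescaling, and the dashed line is the median of all genes tested, -0.02 in gonadal and -0.10 in inguinal fat. All 16 intervals include 0.

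The knockout effect was not shown to differ between the depots for any member. The interaction, knockout effect in gonadal minus that in inguinal fat, was called for 0 of 8 members and 0% of 14577 genes, and unadjusted p-values fell below 0.05 for 0 members and 4.97% of all genes. Fis1 had the largest estimate, 0.25 (SE 0.18, 95% interval -0.15 to 0.66). Mfn2 followed at 0.16 (SE 0.19) and Mff at 0.15 (SE 0.09). The intervals of the 8 members ran between -0.39 and 0.66.

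Some genes that act beside the members were called between the depots, and none between the genotypes. All genes showed the same contrast, with 47.8% and 41.4% called between the depots in knockout and control mice. Between the genotypes 0% of all genes were called in gonadal and 0.022% in inguinal fat. Of 13 other fusion and inner membrane genes 12 were tested. Between the depots 9 were called lower and 0 higher in gonadal fat of knockout mice, and 7 lower and 1 higher in control mice. Of all genes 12.7% were called lower and 35.1% higher in knockout mice, and 14.5% and 26.9% in control mice. The 1 called higher was Fam73a, a mitoguardin, at 0.95 (limma adjusted p = 0.0221). Immt and Chchd3, subunits of the cristae junction complex, differed by -0.96 and -1.24 in knockout mice and by -1.08 and -1.24 in control mice. Fam73b, the other mitoguardin of the list, differed by -1.58 and -1.71. Mtch2, an outer membrane protein, differed by -0.89 and -1.05. The median over the list was -0.50 in knockout and -0.62 in control mice, beside 0.27 and 0.18 over all genes.

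In the knockout comparisons 0 of these 12 were called, against 0% of all genes in gonadal and 0.022% in inguinal fat. In gonadal fat 10 of 12 were higher with a median of 0.19, and 5 had an unadjusted p under 0.05, against 44.2% of all genes higher and 8.69% with such a p. Mtch2 averaged 46.4 ± 3.9 FPKM in gonadal knockout and 34.0 ± 1.6 FPKM in gonadal control pads (SD, n = 3), a log2 fold change of 0.44 (SE 0.09, limma adjusted p = 0.421). Immt stood at 0.27 (SE 0.10), Chchd3 at 0.21 (SE 0.08) and Fam73b at 0.30 (SE 0.12). In inguinal fat 9 of 12 were higher with a median of 0.09, and 12 of 12 after TMM rescaling.

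Of 13 other fission genes 12 were tested, and they split. Between the depots 5 were called lower and 2 higher in gonadal fat of knockout mice, and 5 lower and 1 higher in control mice. The totals, 7 and 6 of 12, lay near the 47.8% and 41.4% of all genes called in either direction. By direction, 12.7% of all genes were called lower and 35.1% higher in knockout mice, and 14.5% and 26.9% in control mice. The calls of this list were thus mostly lower, where those of all genes were mostly higher. Mtfp1, an inner membrane fission protein, differed by -1.86 and -1.59, and March5, a ubiquitin ligase of the outer membrane, by -0.76 and -0.98. Inf2, a formin that builds actin at the site of division, was higher in gonadal fat by 0.97 and 0.71. In the knockout comparisons 0 were called, against 0% of all genes in gonadal and 0.022% in inguinal fat. Mtfp1 stood at 0.38 (SE 0.16, limma adjusted p = 0.592) in gonadal and 0.65 (SE 0.32, limma adjusted p = 0.424) in inguinal fat, and Inf2 at -0.27 (SE 0.13, limma adjusted p = 0.406) in inguinal fat.

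The 5 mitophagy receptors tested had inguinal estimates below 0 on the FPKM scale, on which 29.4% of all genes were higher in knockout pads. None of the receptors was called, against 0.022% of all genes. Of 11 transport and mitophagy genes 10 had lower means in knockout pads, with a median of -0.12 beside -0.10 over all genes, and 6 of 11 after TMM rescaling, so the count followed the scaling. Of the 11, 3 had an unadjusted p under 0.05, against 14.9% of all genes. They were Bnip3, Bnip3l and Fundc1, receptors that mark mitochondria for removal. In inguinal fat Bnip3 averaged 182 ± 24 FPKM in knockout mice, against 256 ± 21 FPKM in controls (SD, n = 3), a log2 fold change of -0.49 (SE 0.12, limma adjusted p = 0.182). Bnip3l stood at -0.33 (SE 0.10, limma adjusted p = 0.242) and Fundc1 at -0.34 (SE 0.08, limma adjusted p = 0.165). After TMM rescaling they were -0.38, -0.21 and -0.23. Of the other receptors, Fkbp8 stood at -0.19 before and -0.08 after that rescaling, and Bcl2l13 changed sign, at -0.06 before it and 0.05 after it. In gonadal fat Bnip3 stood at 0.12 (SE 0.08) and Fundc1 at -0.12 (SE 0.07). For the interaction 3 of the 11 had an unadjusted p under 0.05, against 4.97% of all genes, and 0 were called, against 0% of all genes.

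Genes listed for mitochondrial content were set beside the members as a description, and the amount of mitochondria was not measured. All 13 were tested, and between the depots 10 were called lower and 2 higher in gonadal fat of knockout mice, and 9 lower and 0 higher in control mice, against 12.7% lower and 35.1% higher of all genes in knockout mice and 14.5% and 26.9% in control mice. The 2 called higher, Tomm20 and Vdac2 at 0.29 and 0.43, lost the call after TMM rescaling. The median was -0.83 in both genotypes. Cs, the citrate synthase, differed by -1.42 and -1.28. On the FPKM scale Mfn2 differed between depots by -1.0 in knockout and -1.16 in control mice, and Opa1 by -0.77 and -0.70. The differences of Mfn1, Dnm1l and Mff lay closer to 0, and Oma1, Fis1 and Yme1l1 had estimates above 0. Whether any of these follow mitochondrial amount was not tested. In the knockout comparisons 13 of 13 were higher in gonadal fat (median 0.18) and 11 of 13 in inguinal fat (median 0.15), against 44.2% and 29.4% of all genes. Of the 13, 0 were called, against 0% and 0.022% of all genes. An unadjusted p under 0.05 was found for 4 in gonadal and 1 in inguinal fat, against 8.69% and 14.9% of all genes. Summed levels of the list did not overlap in gonadal fat, at 1232 to 1294 FPKM in knockout and 1071 to 1125 FPKM in control pads. The summed adipocyte markers also separated these gonadal pads, as given above, and their part was not tested. In inguinal fat the summed levels of the list overlapped, at 2352 to 2484 FPKM in knockout and 1700 to 2390 FPKM in control pads. Control M6 was the lowest of these inguinal pads. Cs averaged 120.3 ± 15.0 FPKM in gonadal knockout and 92.7 ± 2.6 FPKM in gonadal control pads (SD, n = 3), a log2 fold change of 0.37 (SE 0.11, limma adjusted p = 0.469). In inguinal fat Cs stood at 0.51 (SE 0.16, limma adjusted p = 0.240). Of 9 biogenesis regulators 8 were tested in gonadal and 9 in inguinal fat. Between the genotypes 0 of these regulators were called, against 0% and 0.022% of all genes. In each depot 1 had an unadjusted p under 0.05, near the 8.69% and 14.9% of all genes with such a p. It was the nuclear receptor gene Esrra, at 0.37 (SE 0.08, limma adjusted p = 0.421) in gonadal and 0.33 (SE 0.12, limma adjusted p = 0.291) in inguinal fat. Esrra was lower in gonadal than in inguinal fat by -0.63 in knockout and -0.66 in control mice, both called.

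**Figure D5:**
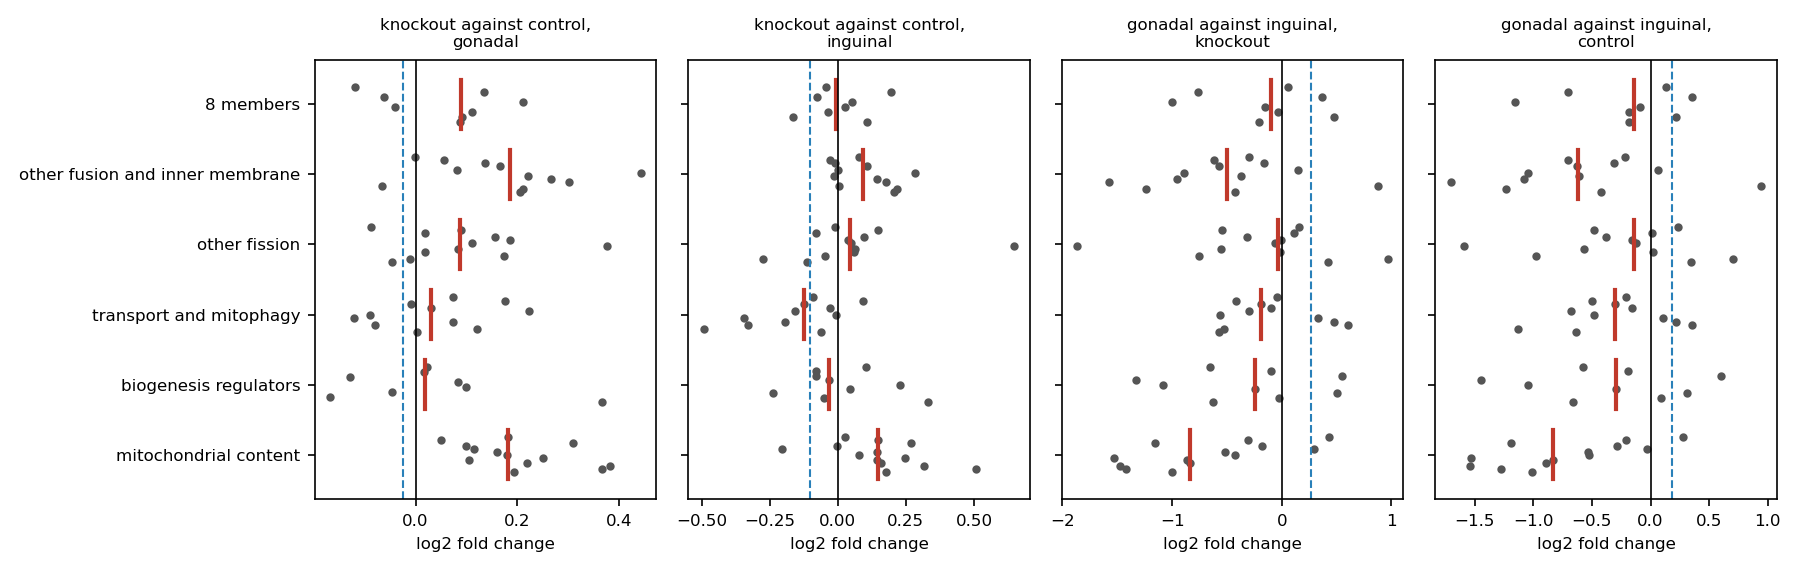
Log2 fold changes (horizontal axis) of the 8 genes and of 5 lists of related genes in the 4 comparisons, 1 dot per gene, with the list median as a red bar and the median of all genes tested as a dashed line. In the depot panels the mitochondrial content median lies at -0.83 in both genotypes and the median of the 8 genes at -0.10 and -0.14. In the knockout panels the median of the 8 genes lies at 0.09 in gonadal and -0.01 in inguinal fat.

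Likeness across the 12 pads was measured as Pearson's r of log2(FPKM + 0.5), and is a description, since the pads share 2 depots and 6 mice. The gene most like Mfn2 was Ppip5k1 (r = 0.996). Within the 6 gonadal pads its r was 0.957, and within the 6 inguinal pads 0.827. The genes most like Opa1 were Vwa8 and Entpd5 (r = 0.995 and 0.994), and there r stayed at 0.943 or more within each depot. For Mfn1 the nearest were Zrsr1 and Nampt (r = 0.889 and 0.887), the lowest values of the 8 members, and within gonadal pads Nampt had r = 0.05. Oma1 was nearest to Pgm3 and Cdkn3 (r = 0.974 for both) and Yme1l1 to Bdp1 and Polr2j (r = 0.943 and 0.939). Dnm1l was nearest to Gtf3c1 and Selo (r = 0.944 and 0.942), Fis1 to Txndc9 and Elp2 (r = 0.961 and 0.956), and Mff to Deb1 and Sar1b (r = 0.959 and 0.952).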

How the data were processed

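RNA-seq libraries of 4 groups were compared. Extraction used a Qiagen RNeasy kit and library preparation a NEBNext kit, per the labels' protocols. CASAVA, STAR and the build mm10 are named without versions, per the submitters' processing notes; for the read counting, tool and strand setting were not given in the sources used here. The authors deposited FPKM for 35275 genes, with a gene length in bases. Their deposited tables of changed genes hold read counts, group means scaled by size factors (unit signal), log2 fold changes and p-values, per the file headers; only listed genes are in them.

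Columns were mapped to groups by name: a first letter z was read as knockout and f as floxed, a last letter e as gonadal and s as inguinal. The names carry animal numbers but no replicate number of the labels. These readings were inferred. The 2 libraries of a pad were averaged, so the mouse is the replicate. Nothing says whether those libraries are repeat preparations.

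A gene entered a fit where its mean over the pads reached 0.5 FPKM. Values of log2(FPKM + 0.5) were compared by limma's two-sided test with a trend (limma 3.58.1, R 4.3.3). This scale understates changes of low genes. P-values were adjusted by Benjamini-Hochberg over all genes tested, with an adjusted p under 0.05 as the threshold. Standard errors and intervals come from the same fit. Multiplied by gene length and library total, 100% of the FPKM values came out whole (tolerance 0.001), and these rebuilt reads went into edgeR's quasi-likelihood test (4.0.16) and into DESeq2 1.42.0. TMM factors from the reads rescaled the FPKM in another alternative. In a depot comparison the pads of a mouse come from the same animal, per the column names; their deviations from the group means correlated at -0.10 to 0.14 over 14577 genes, and a fit with the mouse as a block was an alternative. Other alternatives were pseudocounts of 0.1 and 1, no filter, 6 libraries as replicates, each mouse left out, marker list covariates, and the gonadal pads without male tract transcripts (summed under 100 FPKM).

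The members and the lists were chosen with earlier results of these data known. All members were named, with up to 4 genes of each related list with the smallest p in a knockout comparison and the 2 named genes most like each member, of which 1 is not reported here. Fam73a, Vdac2 and Bcl2l13 were named after their values were seen. Intervals on depth cover counting error only and were not used. Overlapping genes come from GENCODE M21.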

Additional observations from a re-analysis of the deposited data

How the results depend on the processing

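Mfn2 was lower in gonadal fat in every alternative run, between -1.29 and -0.85 on the log2 scale in knockout mice and between -1.36 and -1.03 in control mice, and called in each. Across all alternatives and members, 459 results kept their direction and side of the threshold, 18 passed it newly, 19 no longer passed it and 32 changed sign; causes were not tested. After TMM rescaling, with edgeR and with DESeq2, in that order, Oma1 became 0.031, 0.0040 and 0.031, Yme1l1 0.069, 0.047 and 0.074 and Mff 0.077, 0.050 and 0.077 for knockout against control in inguinal fat. In the same order Yme1l1 became -0.22, -0.19 and -0.23 between the depots in knockout mice and -0.042, -0.039 and -0.058 in control mice, and Oma1 -0.081, -0.073 and -0.061 for the interaction. With the adipocyte list as a covariate, Mfn2 became -0.15 and Oma1 0.075 in gonadal fat. Leaving out each mouse in turn gave ranges that cross 0: in gonadal fat, Oma1 -0.11 to 0.011 and Dnm1l -0.031 to 0.16; in inguinal fat, Mfn1 -0.030 to 0.099 and Yme1l1 -0.094 to 0.0033; for the interaction, Mfn1 -0.16 to 0.015, Opa1 -0.16 to 0.051, Oma1 -0.013 to 0.069 and Dnm1l -0.12 to 0.051. It left 2 to 3 members called between the depots in knockout mice, against 4, and 1 to 2 in control mice, against 3; without M10 only Mfn2 was called there. Counts over all genes moved more. DESeq2 called 313 gonadal, 661 inguinal and 16 interaction genes, against 0, 3 and 0 with limma, and 1 member, Dnm1l, in inguinal fat. With 6 libraries as replicates the calls were 1125, 2189 and 265 for the same fits and 9100 between the depots in control mice, 5 of them members; libraries of a mouse are not independent. Without 1 mouse, calls over all genes ranged from 0 to 1 in gonadal fat, 0 to 78 in inguinal fat, 3047 to 5911 between depots in knockout mice and 1534 to 5257 in control mice. The inguinal fit called 0 genes with the skeletal muscle list and 36 with the adipocyte list as a covariate. With the mouse as a replicate block, 6365 genes were called between depots in knockout and 5092 in control mice, against 6971 and 6010, and no member call other than that of Oma1 in control mice changed. No block by the replicate numbers of the labels was run for the knockout comparisons, because the column names do not carry those numbers. Oma1 rests on the fewest reads of the members, and 3 mice per group limit every interval.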
